A study of Mus musculus with 35 samples.

Results

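Lama1, Lamb1, Lamc1, Nid1, Hspg2, Sparc, Plat, Thbd and Srgn are genes of the basement membrane and of the secreted and surface products associated with parietal endoderm. They were followed in mouse embryonic stem cells differentiated towards neuroectoderm. The 9 genes were taken by their symbols, and all 9 were found in each of the 3 deposited RNA-seq tables, which share 16932 genes. Each of the 9 had a mean normalized count of at least 10 in each table, so none was lost to the filter on low values. A normalized count is a read count per gene divided by a size factor of its library.

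The cells were V6.5 embryonic stem cells, a male line of mixed 129 and C57BL/6 background, with Tet3 left intact (Tet3+/+), with a catalytic mutation of Tet3 (Tet3m/m) or with Tet3 inactivated by removal of an exon (Tet3-/-). TET3 is an enzyme that oxidizes methylated cytosine in DNA. All cultures had been taken off feeder cells and given 1 µM retinoic acid without LIF for 72 h by the labels. The day 3 experiment had 3 Tet3+/+, 3 Tet3m/m and 2 Tet3-/- samples without a vector, described by the study as independent clones. The Dnmt1 experiment had 2 samples for each of 6 groups, covering the 3 genotypes. Either an empty vector or a myc-tagged Dnmt1 vector was put into the stem cells before differentiation. By the study's methods these cells were treated with blasticidin before collection, a step not described for the other experiments. The Tet3-CD experiment had 1 sample for each of 6 groups, with an empty vector or the HA-tagged catalytic domain of TET3 put in during differentiation, and the study's methods place its collection on a later day than its labels do. Nothing in the labels says that the vector samples came from separate cultures, so their p-values measure the spread between these samples, which may be technical.

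Basement membranes are thin sheets of matrix under epithelia and around the early embryo. Laminin trimers of an alpha, a beta and a gamma chain polymerize at the cell surface, and nidogen links them to the collagen IV network, with perlecan as a heparan sulfate proteoglycan of the same sheet. Parietal endoderm, which lines the blastocyst cavity, secretes a very thick basement membrane called Reichert's membrane and is known for abundant laminin, collagen IV and SPARC, for tissue plasminogen activator and for thrombomodulin. Cultures treated with retinoic acid can hold extraembryonic endoderm beside neural cells. In such bulk samples, fewer cells of a type and less RNA per cell cannot be told apart.

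Read totals per library lay between 36594650 and 47710548 on day 3, between 31155842 and 50845950 for the Dnmt1 vectors and between 33475041 and 37707719 for the Tet3-CD vectors. Tet3 itself read 4613, 4576 and 5020.0 on day 3 in Tet3+/+, 2666, 2277 and 1945 in Tet3m/m and 1796 and 2329 in Tet3-/-. The empty vector samples of the Dnmt1 experiment read 2957 and 3075, then 1125 and 964, then 2520.3 and 2571 in the same order, so the Tet3-/- samples there were lower by less than 1.5-fold (log2 fold change -0.24, SE 0.08, limma adjusted p = 0.0114). A value over the whole gene does not resolve the removed exon and so does not check the Tet3-/- label. The Dnmt1 vector raised Dnmt1 by 0.64, 0.90 and 1.06 on the log2 scale in Tet3+/+, Tet3m/m and Tet3-/-. In the Tet3-CD experiment Tet3 went from 4755 to 5441, from 1849.9 to 5232 and from 2069.8 to 2759 in the same genotypes.

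Per length, as normalized counts per kilobase of merged exons, the 9 genes covered a wide range in the day 3 Tet3+/+ samples (n = 3, ± SD). Sparc, a secreted glycoprotein that binds collagen, stood highest at 7615 ± 1582. Hspg2, the gene of perlecan, stood at 3585 ± 383 and Lamc1 at 3092 ± 248, a difference within their summed spreads. Lamb1 followed at 1906 ± 119. Lama1 at 696 ± 243, Plat at 670.3 ± 81.3 and Nid1 at 668 ± 127 did not differ beyond their spread. Srgn at 76.2 ± 25.4 and Thbd at 75.5 ± 11.1 were the lowest and likewise overlapped. Nid1 shares 143 exon bases, 2.06% of its exon length, with the antisense gene Gm48682, and no strand setting is stated for the counting.

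**Figure D1:**
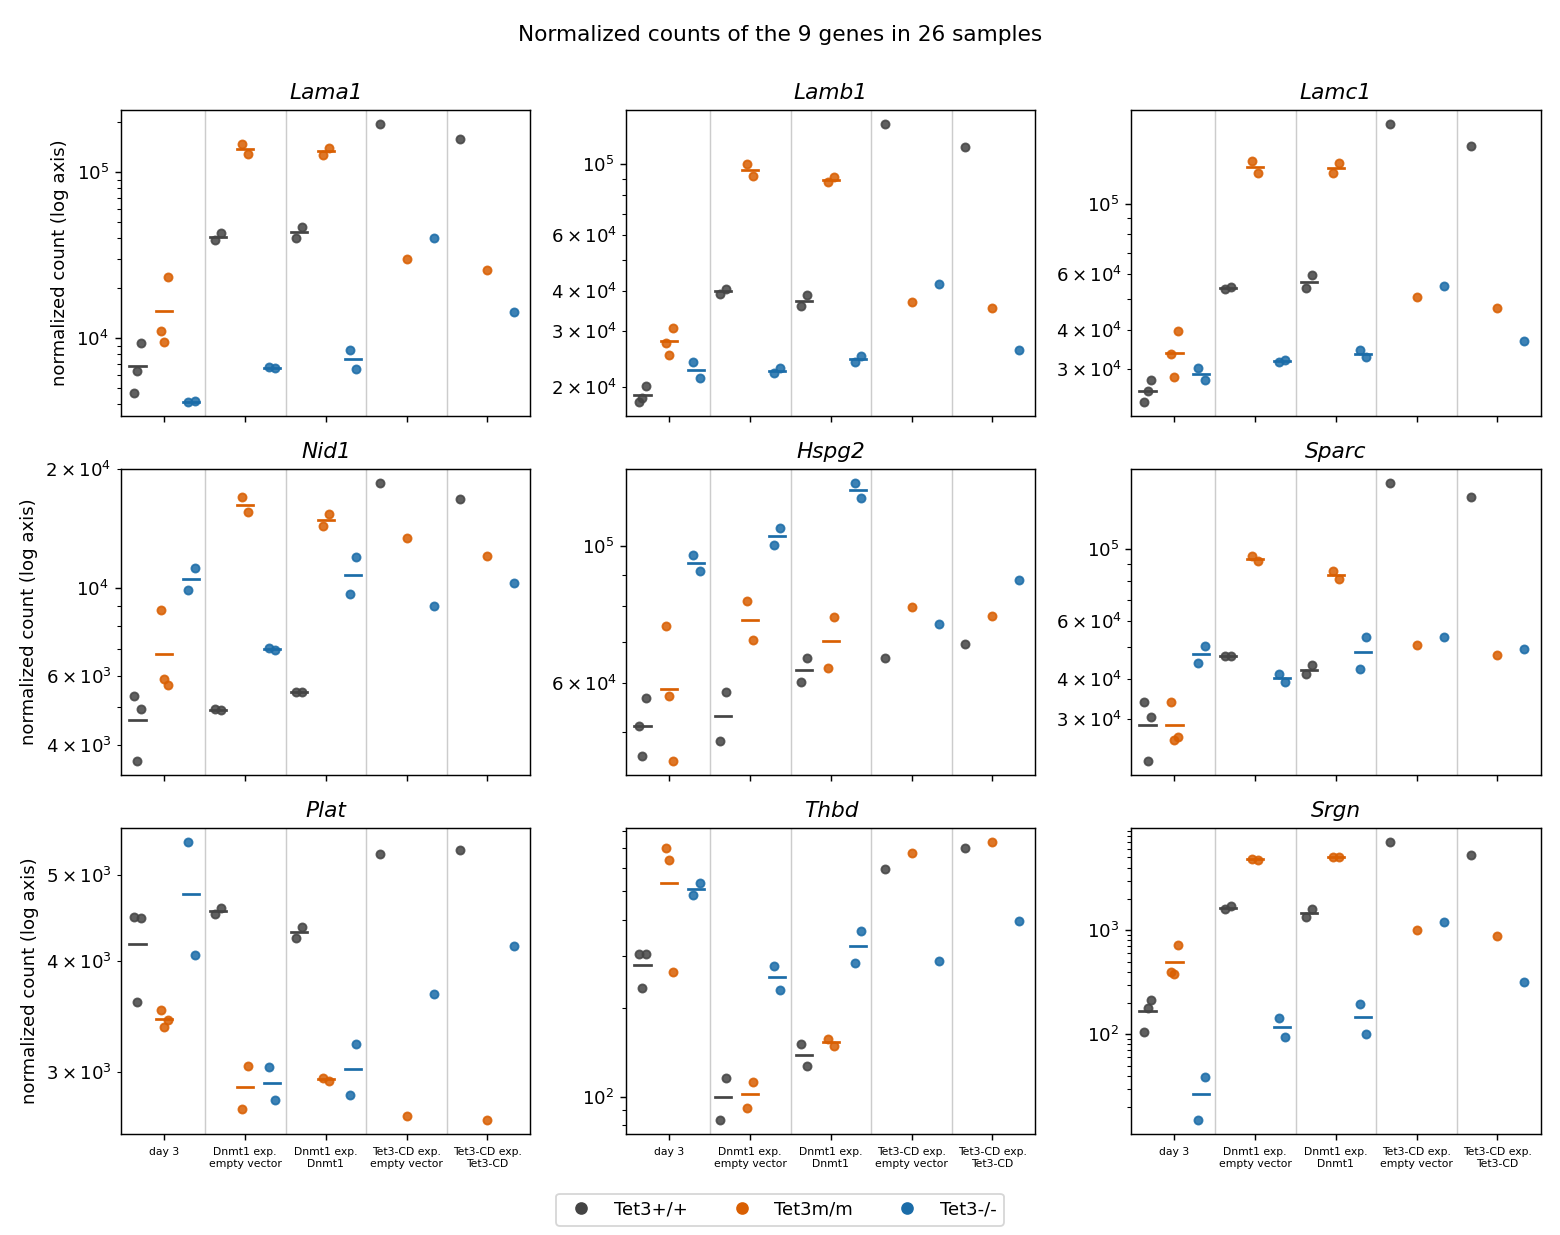
Normalized count (log axis) of each of the 9 genes in each of 26 samples, grouped by experiment and vector, with genotype by colour, a point per sample and a bar at the mean of groups with replicates. The Tet3m/m samples lie highest for the laminin chains in the Dnmt1 experiment, and the Tet3+/+ samples lie highest for them in the Tet3-CD experiment.

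Promoter windows of the RefSeq table (build GRCm38.p6, 250 bases before the gene start) were matched by symbol for 5 of the 9 genes, giving 6 windows because Srgn has a pair of starts. Lama1, Lamc1, Plat and Thbd had no entry. The windows below are shown because, over all 26 samples, Lamb1 had a Pearson r of 0.828 with Srgn and of -0.370 with Hspg2. On day 3 alone these were 0.423 and 0.111, so the Dnmt1 experiment (0.925 and -0.473) and the Tet3-CD experiment (0.983 and -0.933) carry them. Sparc, whose window is not shown, had a higher r with Lamb1, at 0.839 over all samples and -0.036 on day 3. Capitals mark GGGCGG (the GC box, on either strand) and TATAAA (the TATA box), and the sequences read 5′ to 3′ on the strand of the gene.
Lamb1 chr12:31265043-31265292, + strand: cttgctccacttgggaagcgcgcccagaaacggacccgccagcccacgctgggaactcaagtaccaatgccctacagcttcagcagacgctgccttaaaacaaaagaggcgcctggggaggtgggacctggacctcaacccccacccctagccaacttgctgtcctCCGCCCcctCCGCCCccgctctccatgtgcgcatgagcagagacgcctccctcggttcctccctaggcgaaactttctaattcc
Hspg2 chr4:137468553-137468802, + strand: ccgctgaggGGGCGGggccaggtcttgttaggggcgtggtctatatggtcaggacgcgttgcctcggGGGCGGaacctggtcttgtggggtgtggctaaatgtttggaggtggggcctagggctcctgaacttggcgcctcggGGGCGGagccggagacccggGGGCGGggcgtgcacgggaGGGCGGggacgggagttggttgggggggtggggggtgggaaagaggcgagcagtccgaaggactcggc
Srgn chr10:62527446-62527695, - strand, the upstream start: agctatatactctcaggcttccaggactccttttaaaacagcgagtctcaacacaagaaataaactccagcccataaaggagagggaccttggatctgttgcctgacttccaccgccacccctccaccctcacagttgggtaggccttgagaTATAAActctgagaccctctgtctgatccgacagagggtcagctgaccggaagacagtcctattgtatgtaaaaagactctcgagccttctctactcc
The Lamb1 window held 2 GC boxes and the Hspg2 window 5, against at least 1 in 32.7% of all 32851 windows of the table. The Srgn window shown held no GC box and 1 match to TATAAA, starting 98 bases before the gene start. Such a match is in 12.4% of all windows. Of the windows not shown, that of Nid1 held 1 GC box and no TATA box. Those of Sparc and of the other Srgn start held 0 of both motifs. GC content was 62.0% for Lamb1, 70.0% for Hspg2 and 49.6% for Srgn, beside a median of 52.4% over all windows. The GATA motif, searched in a first form AGATAA and, on both strands as well, in its other usual form TGATAA, was in 16.6% of all windows and in 0 of these 6. The SOX motif, searched in the form ACAAAG and then, likewise on both strands, in the related form ACAATG, was in 25.2% of all windows and in 0 of the 6. The half-site of retinoic acid receptors, AGGTCA, was in 14.0% of all windows and again in 0 of the 6.

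The day 3 samples ask how the loss of TET3 catalysis or of the protein altered expression at the end of the differentiation. Of the 3 laminin chains 1 was called in Tet3m/m against Tet3+/+, a rise in Lama1, and 0 in Tet3-/-. In these comparisons 10.2% and 0.642% of all tested genes were called. The Tet3+/+ samples read 4643, 6288 and 9287 normalized counts of Lama1, the alpha chain of the embryonic laminin, the Tet3m/m samples 10979, 9465 and 23376, and the Tet3-/- samples 4087 and 4181. The genotype groups of Lama1 did not overlap, and replicate 3 of Tet3m/m was the highest sample by far. Lama1 rose in Tet3m/m (log2 fold change 1.05, SE 0.31, adjusted p = 0.0482, limma with Benjamini-Hochberg adjustment over 17915 genes). That call was kept in 8 of 18 other settings, with adjusted p between 0.00085 and 0.171, and it was lost without Tet3+/+ replicate 1 or 2, without Tet3m/m replicate 1 or 3 and without either Tet3-/- sample. Other processing lost the Lama1 call as well. Among these settings were a pseudocount of 0.1, a mean of at least 50 and only the compared groups. Without Tet3m/m replicate 3 the Lama1 log2 fold change was 0.66.

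Lamb1, the beta chain, read 17929, 18552 and 20215 in Tet3+/+ and 27611, 25296 and 30754 in Tet3m/m, again without overlap. This difference passed the adjusted p but was 1.47-fold, just under the 1.5-fold required for a call (log2 fold change 0.56, SE 0.10, adjusted p = 0.00508, limma). Lamb1 in Tet3-/- read 23968 and 21362, between the other genotypes on average (log2 fold change 0.26, SE 0.11, adjusted p = 0.226, limma). Lamc1, the gamma chain, read 23530.0, 25567 and 27633 in Tet3+/+, 33556, 28246 and 39656 in Tet3m/m and 30175 and 27758 in Tet3-/-, and neither genotype passed the test against Tet3+/+ (limma adjusted p = 0.063 and 0.498). Lama1 in Tet3-/- lay below all Tet3+/+ samples without passing the test (log2 fold change -0.65, SE 0.35, adjusted p = 0.327, limma). Between the mutants, Lama1 fell from Tet3m/m to Tet3-/- (log2 fold change -1.70, SE 0.35, adjusted p = 0.0115, limma), a call that was lost without either Tet3-/- sample.

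Nid1, the nidogen that links laminin to collagen IV, read 5327, 3643 and 4945 in Tet3+/+, 8818, 5892 and 5683 in Tet3m/m and 9856 and 11216 in Tet3-/-. All Tet3-/- values lay above all others, and Nid1 rose in Tet3-/- against Tet3+/+ (log2 fold change 1.20, SE 0.20, adjusted p = 0.0464, limma). Hspg2 read 51194, 45857 and 56812 in Tet3+/+, 74181, 57155 and 44862 in Tet3m/m and 96669 and 91269 in Tet3-/-. The Tet3-/- samples were the highest for Hspg2 as well, which passed against Tet3m/m (log2 fold change 0.71, SE 0.18, adjusted p = 0.0314, limma) but not against Tet3+/+ (log2 fold change 0.88, adjusted p = 0.0514, limma). Sparc read 33872, 22217 and 30453 in Tet3+/+, 33948, 25788 and 26469 in Tet3m/m and 44754 and 50438 in Tet3-/-. Its Tet3+/+ and Tet3m/m groups overlapped almost entirely, and it was higher in Tet3-/- than in Tet3m/m (log2 fold change 0.74, SE 0.18, adjusted p = 0.0243, limma). The Hspg2 call was kept in 11 of 18 other settings and was lost with the replicate block (adjusted p = 0.0514), with only the compared groups (0.0803), and without Tet3+/+ replicate 1, Tet3m/m replicate 2 or 3 or either Tet3-/- sample, and the Sparc call without Tet3m/m replicate 2 or 3 or either Tet3-/- sample.

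Srgn encodes serglycin, a proteoglycan core protein of secretory vesicles, and it spread the most of the 9 genes on day 3. The Tet3+/+ samples read 106, 180.3 and 215, the Tet3m/m samples 397, 379 and 723 and the Tet3-/- samples 14.8 and 38.7. No genotype group overlapped another, and the day 3 samples spanned 48.7-fold. Srgn rose in Tet3m/m (log2 fold change 1.57, SE 0.40, adjusted p = 0.0251, limma) and fell in Tet3-/- (log2 fold change -2.69, SE 0.44, adjusted p = 0.0464, limma), and it fell from Tet3m/m to Tet3-/- in all 18 other settings (log2 fold change -4.25, SE 0.44, adjusted p = 0.000473, limma). The rise in Tet3m/m was lost without Tet3+/+ replicate 1 or 2 or Tet3m/m replicate 3. The calls of Srgn and Nid1 in Tet3-/- were both kept in 12 of 18 other settings and were both lost when any single Tet3+/+ sample was left out, without Tet3m/m replicate 2 and without either Tet3-/- sample. Without those samples Srgn gave a log2 fold change of -3.35 to -2.02 and Nid1 of 1.03 to 1.31.

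Plat, the tissue plasminogen activator that turns plasminogen into plasmin, read 4483, 3598 and 4469 in Tet3+/+, 3521, 3369 and 3429.6 in Tet3m/m and 5453 and 4067 in Tet3-/-, and passed no test on day 3. Thbd, the thrombin receptor thrombomodulin, read 306, 233 and 304 in Tet3+/+, 699, 639 and 265 in Tet3m/m and 486 and 533 in Tet3-/-. Replicate 3 of Tet3m/m stood with the Tet3+/+ samples for Thbd and apart from the other Tet3m/m samples. With it the difference of Tet3m/m did not pass (log2 fold change 0.81, adjusted p = 0.114, limma), and without it the log2 fold change was 1.26 with an adjusted p of 0.00161.

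In all, 2 of the 9 genes rose and 0 fell in Tet3m/m against Tet3+/+, in a comparison where 10.2% of all tested genes were called in either direction. In Tet3-/- against Tet3+/+ 1 rose and 1 fell (0.642% of all genes called, a count of 115 genes that was 0 without Tet3+/+ replicate 1 or 3, Tet3m/m replicate 2 or either Tet3-/- sample, and 2 without Tet3+/+ replicate 2), and in Tet3-/- against Tet3m/m 2 rose and 2 fell (9.73%). The values of the groups did not overlap for 6, 8 and 7 of the 9 genes in the same comparisons, beside 36.7%, 41.2% and 41.0% of all genes. The median log2 fold change of the 9 genes was 0.54, 0.26 and 0.05, beside 0.00, -0.01 and -0.01 over all genes.

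The empty vector samples of the Dnmt1 experiment repeated the genotype comparison with samples of small spread. All 3 laminin chains were highest in Tet3m/m and lowest in Tet3-/-. Lama1 read 38876 and 42768 in Tet3+/+, 148511 and 128789 in Tet3m/m and 6645 and 6551 in Tet3-/-. It rose in Tet3m/m (log2 fold change 1.76, SE 0.09, adjusted p = 7.36e-13, limma) and fell in Tet3-/- (log2 fold change -2.63, SE 0.09, adjusted p = 1.61e-15, limma). Lamb1 read 39268 and 40698 in Tet3+/+, 99979.5 and 91851 in Tet3m/m and 22145 and 22998 in Tet3-/-, with log2 fold changes of 1.26 and -0.82 (limma adjusted p = 3.84e-15 and 6.51e-12). Lamc1 read 53858 and 54479.7, 136462 and 124663 and 31609.7 and 32121 in the same order, with log2 fold changes of 1.27 and -0.77 (limma adjusted p = 9.66e-15 and 5.90e-11). No sample of a genotype overlapped another genotype for any laminin chain.

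Nid1 read 4934 and 4911 in Tet3+/+, 16959 and 15526 in Tet3m/m and 7057 and 6953 in Tet3-/-, and rose in Tet3m/m (log2 fold change 1.72, SE 0.07, adjusted p = 9.06e-15, limma). In Tet3-/- Nid1 was higher by less than 1.5-fold (log2 fold change 0.51, SE 0.07, adjusted p = 2.07e-06, limma). Sparc read 46789 and 46862, 95425 and 91852 and 41379 and 38915 in the 3 genotypes, rose in Tet3m/m (log2 fold change 1.00, SE 0.07, adjusted p = 6.48e-11, limma) and was lower by less than 1.5-fold in Tet3-/- (log2 fold change -0.22, limma adjusted p = 0.0083). Hspg2 went another way, reading 48329.8 and 58077 in Tet3+/+, 81613 and 70399 in Tet3m/m and 100532 and 106875 in Tet3-/-, so that the genotype with the least laminin RNA held the most perlecan RNA. Hspg2 rose in Tet3-/- (log2 fold change 0.97, SE 0.08, adjusted p = 2.81e-09, limma) and was higher by less than 1.5-fold in Tet3m/m (log2 fold change 0.52, limma adjusted p = 2.08e-05). Without Tet3+/+ replicate b or Tet3m/m replicate 2 the Hspg2 difference of Tet3m/m passed 1.5-fold, with log2 fold changes of 0.65 and 0.62.

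Srgn read 1597 and 1705 in Tet3+/+, 4875 and 4769 in Tet3m/m and 143 and 93.1 in Tet3-/-. The order of the genotypes was that of the laminin chains, over a wider range. Srgn rose in Tet3m/m (log2 fold change 1.55, SE 0.20, adjusted p = 1.05e-06, limma) and fell in Tet3-/- (log2 fold change -3.83, SE 0.20, adjusted p = 1.06e-12, limma). Thbd read 83 and 116, 91.4 and 112 and 278 and 231, overlapped between Tet3+/+ and Tet3m/m and rose in Tet3-/- (log2 fold change 1.36, SE 0.20, adjusted p = 9.47e-06, limma).

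Plat read 4524 and 4588 in Tet3+/+, 2724 and 3044 in Tet3m/m and 3038 and 2788 in Tet3-/-. It fell in both mutants, with log2 fold changes of -0.66 in Tet3m/m and -0.65 in Tet3-/- (limma adjusted p = 2.89e-08 and 4.32e-08). Its fold change slipped under 1.5-fold without Tet3m/m replicate 1 (log2 -0.58) and without Tet3-/- replicate 2 (log2 -0.58). Plat lies on chromosome 8, where the median log2 fold change of the other measured genes was -0.45 in Tet3m/m and -0.38 in Tet3-/- in these samples. On day 3 the median of chromosome 8 was -0.34 in Tet3m/m, beside -0.28 for Plat, and -0.08 in Tet3-/-. The Tet3-/- samples differed in this, with chromosome 8 at 0.17 in replicate 1 and -0.32 in replicate 2 against the mean of Tet3+/+, where Plat read 5453 and 4067. In the empty vector samples of the Tet3-CD experiment chromosome 8 stood at -0.08 in Tet3m/m and 0.09 in Tet3-/-, while the log2 ratio of Plat was -0.98 and -0.53. The part of this shift of the chromosome in the values of Plat was not tested.

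In the empty vector samples of the Dnmt1 experiment 6 of the 9 genes rose and 1 fell in Tet3m/m against Tet3+/+ (21.2% of all genes called in either direction). In Tet3-/- against Tet3+/+ 2 rose and 5 fell (24.9%), and in Tet3-/- against Tet3m/m 1 rose and 6 fell (39.6%). The groups did not overlap for 8, 9 and 8 of the 9 genes, beside 72.3%, 77.1% and 82.1% of all genes, so this count was close to the background. The median log2 fold change of the 9 genes was 1.26, -0.65 and -1.22, beside 0.01, 0.00 and -0.01 over all genes. In each experiment the comparisons of Tet3m/m and Tet3-/- share their Tet3+/+ samples.

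The Tet3-CD experiment held 1 empty vector sample per genotype, so its values have no replicate check and were given no test. The order of the genotypes differed from that of the other experiments. The Tet3+/+ sample was the highest for Lama1, Lamb1, Lamc1, Nid1, Sparc, Plat and Srgn. Lama1 read 196257 in Tet3+/+, 30088 in Tet3m/m and 40099 in Tet3-/-. The log2 ratio of Lama1 in Tet3m/m to Tet3+/+ was -2.71, interval -2.723 to -2.688, where the interval is an exact 95% interval that covers counting error only. Lamb1 read 134019.5, 37092 and 42267, and Lamc1 179308, 50737 and 54949. Both chains stood more than 3-fold lower in both mutants, with log2 ratios from -1.85 to -1.66.

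Srgn read 7095 in Tet3+/+, 1011 in Tet3m/m and 1205 in Tet3-/-. Its log2 ratio of Tet3m/m to Tet3+/+ was -2.81, interval -2.905 to -2.718, opposite in sign to the rise measured on day 3 and in the Dnmt1 experiment. Sparc read 160437, 50719.5 and 53500.3 in the same order, and Nid1 18458, 13339 and 8979. Hspg2 varied little, at 66076, 79811 and 74783. Plat read 5281, 2675 and 3669.5, and Thbd 596, 676 and 289. Past 1.5-fold against Tet3+/+, 6 of the 9 genes were lower and 0 higher in Tet3m/m, where 36.3% of all genes passed that fold in either direction. In Tet3-/- 7 were lower and 0 higher, where 27.1% of all genes passed.

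**Figure D2:**
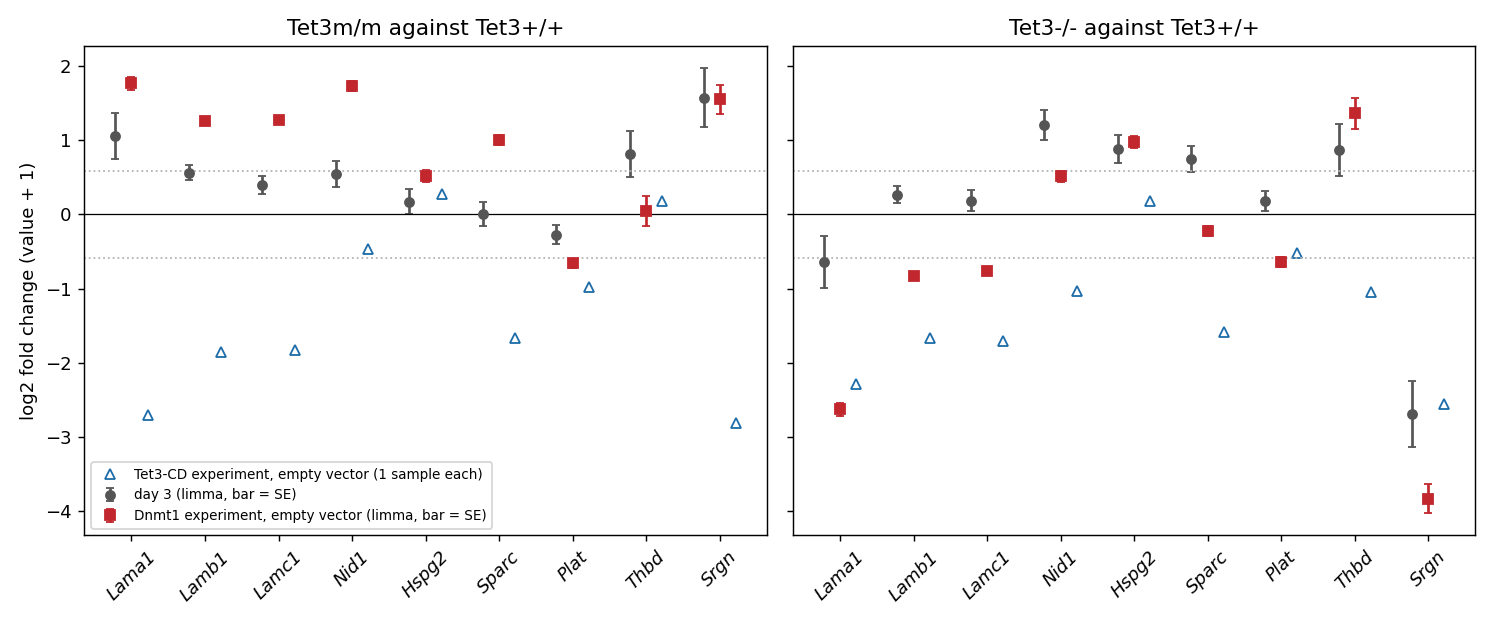
Log2 fold change of each of the 9 genes in Tet3m/m and Tet3-/- against Tet3+/+, as limma estimates ± SE for day 3 and for the empty vector samples of the Dnmt1 experiment, and as single-sample log2 ratios (open triangles, no error) for the empty vector samples of the Tet3-CD experiment; dotted lines mark 1.5-fold. For Tet3m/m, Lama1, Lamb1, Lamc1 and Srgn lie above 0 on day 3 and in the Dnmt1 experiment and below 0 in the Tet3-CD experiment.

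The Dnmt1 vector was compared with the empty vector in each genotype to ask whether more of the maintenance DNA methyltransferase altered expression. The vector left the order of the genotypes in place for the laminin chains. Lama1 with the Dnmt1 vector read 40019 and 46886 in Tet3+/+, 127644 and 139258 in Tet3m/m and 8512 and 6496 in Tet3-/-, and its log2 fold changes against the empty vector were 0.09, -0.05 and 0.17. Of the 9 genes, 0 were called in Tet3+/+ (1.17% of all genes called by limma) and 0 in Tet3m/m (2.46%). At an unadjusted p under 0.05, 3 of the 9 genes passed in Tet3+/+ and 3 in Tet3m/m. The shares of all genes given here are for the full rule and not for that looser limit. These counts thus have no background beside them and are not read as a result about the genes. After adjustment the lowest limma adjusted p was 0.07965 for Hspg2 in Tet3+/+ and 0.07097 for Thbd in Tet3m/m. By edgeR and DESeq2 on the recovered reads 0 were called in both genotypes.

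In Tet3-/- 1 of the 9 genes was called, Nid1 (3.53% of all genes called). Nid1 read 7057 and 6953 with the empty vector and 9662 and 11961 with the Dnmt1 vector in Tet3-/-. Both Dnmt1 samples of Nid1 were higher, and the rise passed (log2 fold change 0.62, SE 0.07, adjusted p = 3.86e-06, limma), but without Dnmt1 replicate 2 its log2 fold change was 0.46, under 1.5-fold. Nid1 with the Dnmt1 vector read 5443 and 5458 in Tet3+/+ and 14302 and 15404 in Tet3m/m, with log2 fold changes of 0.15 and -0.13. Sparc in Tet3-/- went from 41379 and 38915 to 42787 and 53694 and Hspg2 from 100532 and 106875 to 126759 and 119742. Both passed the adjusted p but not 1.5-fold, with log2 fold changes of 0.26 (adjusted p = 0.0136) and 0.25 (adjusted p = 0.0487) by limma.

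Thbd with the Dnmt1 vector read 151 and 127 in Tet3+/+, 157 and 149 in Tet3m/m and 285 and 367 in Tet3-/-. These values were above their empty vector groups in each genotype, by 0.49, 0.59 and 0.35 on the log2 scale, and passed the adjusted test in none (limma adjusted p = 0.171, 0.071 and 0.297). Srgn with the Dnmt1 vector read 1347 and 1595, 5042 and 5004 and 195 and 100 in the same order, and Plat 4249 and 4372, 2955 and 2933 and 2822 and 3227. The effect of the vector in Tet3-/- minus that in Tet3+/+ was 0.47 for Nid1, 0.39 for Sparc and 0.22 for Lamb1 (limma adjusted p = 0.00318, 0.0106 and 0.0424), each under 1.5-fold. By the full rule 0 of the 9 genes were called in that difference, beside 3.99% of all genes, and 0 in the difference of Tet3m/m and Tet3+/+, beside 0.604%. At an unadjusted p under 0.05 the differences of Tet3-/- and of Tet3m/m passed for 3 and 2 genes, and edgeR and DESeq2 called 0. Again the shares of all genes are for the full rule and not for the unadjusted limit, so the counts at that limit have no background beside them. Without Dnmt1 replicate 1 of Tet3-/-, Nid1 passed the full rule for the difference of Tet3-/- (log2 0.62).

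**Figure D3:**
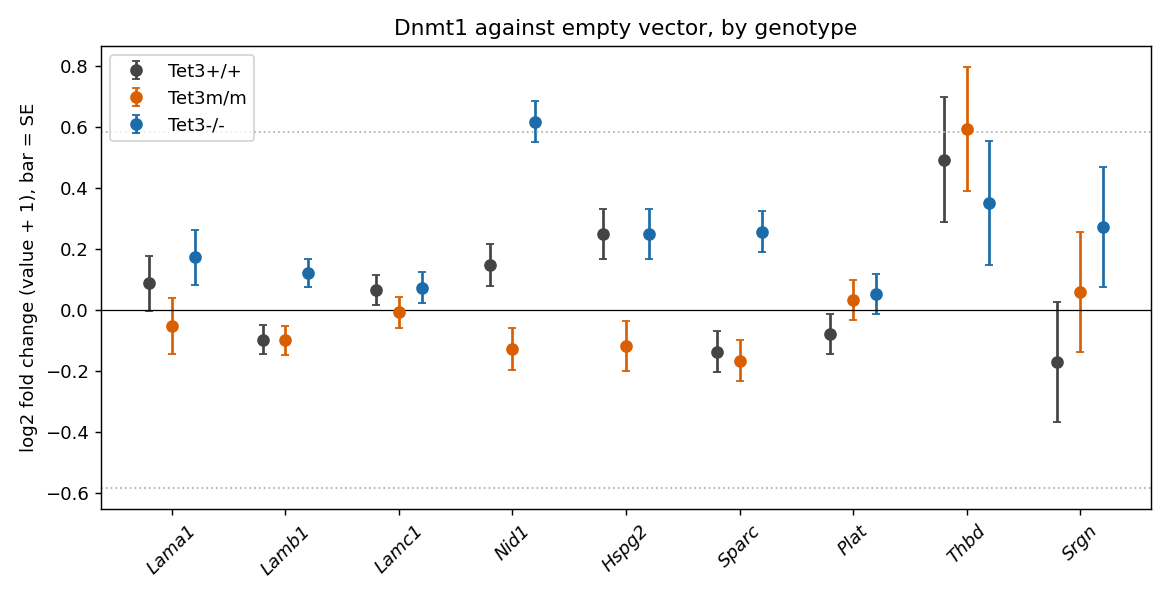
Log2 fold change of the Dnmt1 vector against the empty vector for each of the 9 genes by genotype (limma estimate ± SE, 2 samples per group); dotted lines mark 1.5-fold. Nid1 in Tet3-/- lies above 1.5-fold at 0.62 and Thbd in Tet3m/m lies at 0.59 with a wide error.

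The Tet3-CD vector was compared with the empty vector in single samples, to ask whether the catalytic domain alone altered expression. In Tet3+/+ and in Tet3m/m 0 of the 9 genes passed 1.5-fold, where 13.4% and 10.1% of all genes did. In Tet3-/- 3 were lower and 0 higher past 1.5-fold, where 21.5% of all genes passed in either direction. By the values given above, Tet3 itself rose most with the vector in Tet3m/m and less in Tet3-/- and Tet3+/+. The part of the vector in the differences of Tet3-/- was not tested. Lama1 went from 40099 to 14417 in Tet3-/- (log2 ratio -1.48, interval -1.503 to -1.449). Lamb1 went from 42267 to 26267 (log2 ratio -0.69, interval -0.708 to -0.664), and Lamc1 from 54949 to 36861, just inside 1.5-fold (log2 ratio -0.58, interval -0.595 to -0.557). Srgn went from 1205 to 316 (log2 ratio -1.93, interval -2.112 to -1.756). The other 5 genes had log2 ratios between -0.12 for Sparc and 0.46 for Thbd in Tet3-/-. In Tet3+/+ the laminin chains went down slightly, with log2 ratios of -0.31 for Lama1, -0.24 for Lamb1 and -0.23 for Lamc1. These intervals again cover counting error only, and 1 sample a group leaves the spread between cultures unknown.

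The 3 laminin chains differed in how closely they kept to each other. Per length, the ratio of Lamb1 to Lamc1 stayed between 0.546 and 0.747 over the 26 samples, with a median of 0.613. The ratio of Lama1 to Lamc1 ran from 0.116 to 0.935 with a median of 0.486, so the alpha chain varied far more than the beta chain beside the same gamma chain. Nid1 to Lamc1 ran from 0.107 to 0.481, Hspg2 to Lamc1 from 0.213 to 2.13 and Sparc to Lamc1 from 1.31 to 3.97. In fold range within an experiment, Lama1 spanned 5.72-fold on day 3, 22.9-fold in the Dnmt1 experiment and 13.6-fold in the Tet3-CD experiment. Plat spanned 1.62-fold, 1.68-fold and 2.02-fold and Hspg2 2.15-fold, 2.62-fold and 1.34-fold in the same experiments.

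As a description over 26 samples, with log2 values centred within each experiment, Lamb1 and Lamc1 had a Pearson r of 0.995, Lama1 and Lamc1 of 0.944 and Lama1 and Srgn of 0.955. Samples of an experiment share their genotypes and vectors, so the points are not independent. Against the mean of the 3 laminin chains, r was 0.906 for Srgn, 0.746 for Sparc, 0.469 for Nid1, 0.168 for Plat, -0.376 for Thbd and -0.505 for Hspg2. Within the day 3, Dnmt1 and Tet3-CD experiments, r kept its sign for Srgn (0.763, 0.972 and 0.988) and Hspg2 (-0.340, -0.584 and -0.939). It changed sign for Sparc (-0.413, 0.855 and 0.973), Nid1 (-0.072, 0.520 and 0.833), Plat (-0.598, -0.050 and 0.729) and Thbd (0.014, -0.744 and 0.339). The day 3 values rest on 8 samples, and these changes of sign were not tested. Those of Nid1 and Thbd on day 3 and of Plat in the Dnmt1 experiment involve very small values. The 9 genes thus did not share 1 profile over these samples, and they are called here by their names and not as markers of a cell type. Of 12125 genes ranked in this way, Lgmn (r = 0.984), Kcng1 (0.982), Mttp (0.980), Klf8 (0.979) and Gata4 (0.978) were the most like the laminin mean other than the chains themselves. Without the chains, Srgn ranked 109, Sparc 775 and Nid1 2783 by likeness to the laminin mean. Cldn4, a claudin of tight junctions, was the least like it (-0.975), followed by Card10 (-0.973). Gata4, a transcription factor of early endoderm, read 867, 1070.3 and 1155 on day 3 in Tet3+/+, 1202, 1397 and 2467 in Tet3m/m and 442 and 701 in Tet3-/-. In the empty vector samples of the Dnmt1 experiment Gata4 read 3492 and 3794, 10492 and 9941 and 771 and 717, and in those of the Tet3-CD experiment 14098, 2522 and 3106. Gata4 followed the order of the laminin chains in the Dnmt1 and Tet3-CD experiments. Other endoderm transcription factors varied in their r to the laminin mean, with 0.961 for Sox7, 0.89 for Sox17, 0.503 for Foxa2 and 0.355 for Gata6.

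**Figure D4:**
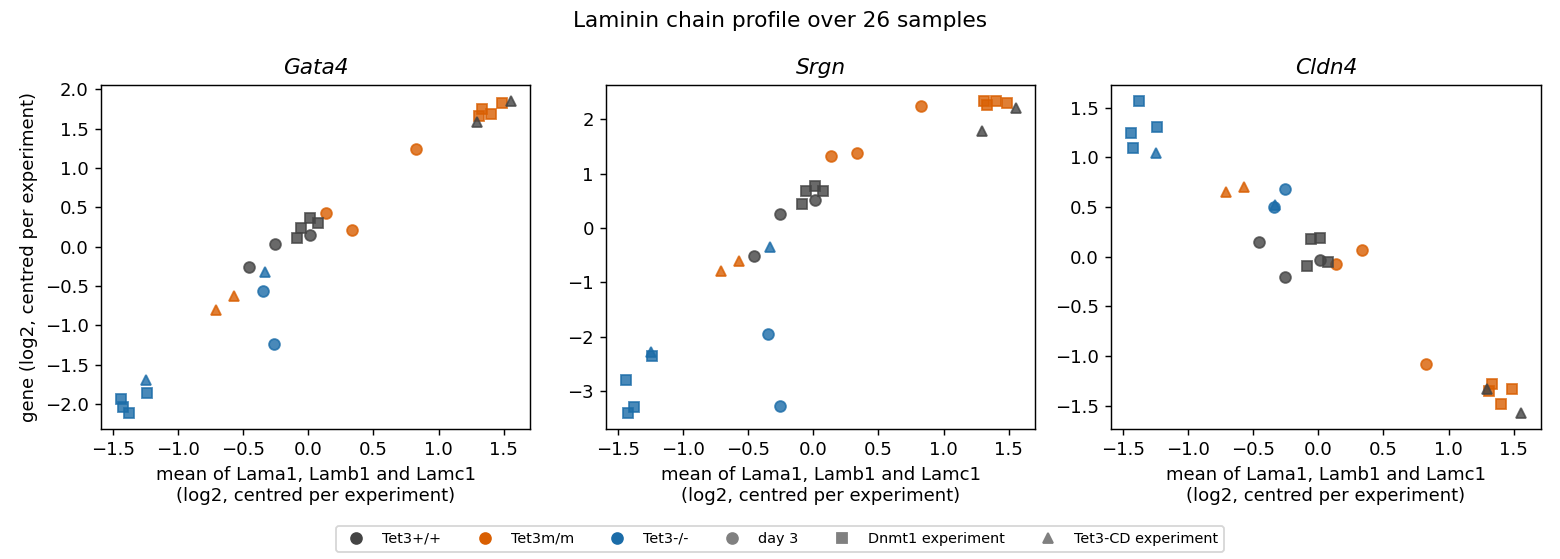
Log2 values of Gata4, Srgn and Cldn4 against the mean log2 value of Lama1, Lamb1 and Lamc1, each centred within its experiment, for 26 samples. Gata4 and Srgn rise with the laminin mean (r = 0.978 and 0.906) and Cldn4 falls with it (r = -0.975); points of an experiment share genotypes and vectors.

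The other 30 basement membrane components listed did not move as a block. In the empty vector samples of the Dnmt1 experiment 9 rose and 9 fell in Tet3m/m, with a median log2 fold change of -0.40 beside 0.01 over all genes, and 9 rose and 3 fell in Tet3-/- (median 0.27), in comparisons where 21.2% and 24.9% of all genes were called. Col4a1, a chain of the collagen IV of parietal endoderm, read 80106 and 82616 in Tet3+/+, 173340.1 and 152989 in Tet3m/m and 23420.3 and 22489.9 in Tet3-/-, and it fell in Tet3-/- by 1.83 on the log2 scale. Col4a2 fell there by 1.29. Col4a5 went the other way, with log2 fold changes of -2.78 in Tet3m/m and 2.08 in Tet3-/-, and Nid2, the second nidogen, rose in Tet3m/m by 1.09. On day 3, where 10.2% and 0.642% of all genes were called in Tet3m/m and Tet3-/-, 6 rose and 2 fell in Tet3m/m. Among them were Fbln1 (log2 0.99) and Col4a5 (-1.21), and 1 rose in Tet3-/-, Fn1, the gene of fibronectin (log2 1.20). All of these are limma calls over all genes.

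In the lists that follow, the shares of all genes called were 10.2% in Tet3m/m and 0.642% in Tet3-/- on day 3, and 21.2% and 24.9% with the empty vector of the Dnmt1 experiment. Of 17 laminin and basement membrane receptors, 2 rose and 1 fell in Tet3m/m on day 3 and 1 rose in Tet3-/-. In the Dnmt1 experiment 4 rose and 7 fell in Tet3m/m, among them Bcam, a laminin receptor, at -1.23 and Sdc1, a syndecan, at -1.36, and 7 rose and 0 fell in Tet3-/-, with Bcam at 0.97 and Ddr1, a collagen receptor, at 1.10 (limma, log2 fold change). Of 15 genes of collagen and matrix secretion, 7 rose and 1 fell in Tet3m/m there, and 3 rose and 3 fell in Tet3-/-. P4ha2 and P4ha1, subunits of the enzyme that hydroxylates proline in collagen, rose in Tet3m/m by 1.22 and 0.74 and fell in Tet3-/- by 1.35 and 1.51 on the log2 scale. On day 3 0 of these 15 rose and 1 fell in Tet3m/m, and 0 were called in Tet3-/-. Of the partners of Plat and Thbd in plasminogen activation and thrombin regulation, 12 were measured on day 3, with 0 up and 1 down in Tet3m/m and 0 called in Tet3-/-. In the Dnmt1 experiment 14 were measured, with 3 up and 3 down in Tet3m/m and 5 up and 3 down in Tet3-/-. Tfpi, an inhibitor of coagulation, fell in Tet3-/- by 1.45 on the log2 scale.

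Visceral endoderm markers rose in Tet3m/m and fell in Tet3-/- in the Dnmt1 experiment, as the laminin chains did there. Of 18 measured markers of parietal and primitive endoderm other than the 9 genes (Tfpi2 was not in the table), 10 rose and 6 fell in Tet3m/m in the empty vector samples of the Dnmt1 experiment, and 5 rose and 9 fell in Tet3-/-. Sox7, an endoderm transcription factor, read 659.9 and 664 in Tet3+/+, 2479 and 2254 in Tet3m/m and 74.7 and 76.2 in Tet3-/-. Dab2, an adaptor of endocytosis, rose in Tet3m/m by 1.62 and fell in Tet3-/- by 1.29, whereas Krt19, a keratin, had log2 fold changes of -2.02 and 1.43. The summed level of these 18 markers was 129216 to 129854 in Tet3+/+, 129027 to 129552 in Tet3m/m and 186849 to 194121 in Tet3-/-. Their mean log2 value was instead highest in Tet3m/m (11.74 to 11.80) and lowest in Tet3-/- (11.00 to 11.09), beside 11.49 to 11.55 in Tet3+/+. Of 14 visceral endoderm markers, 11 rose and 0 fell in Tet3m/m and 0 rose and 13 fell in Tet3-/-, beside 21.2% and 24.9% of all genes called, and their summed level was 35511 to 38029 in Tet3+/+, 91261 to 100265 in Tet3m/m and 8335 to 8414 in Tet3-/-. On day 3, 7 of 12 visceral markers rose and 0 fell in Tet3m/m, among them Rbp4 and Apob with log2 fold changes of 1.93 and 3.17, and 0 rose and 1 fell in Tet3-/-, beside 10.2% and 0.642% of all genes. The median log2 fold change of the visceral list in Tet3-/- was -0.39 there. In that comparison Lama1, Lamb1 and Lamc1 had -0.65, 0.26 and 0.18 without passing the test, and Srgn was called at -2.69. The summed level of the visceral markers was 7337 to 9163 in Tet3+/+, 10846 to 15660.1 in Tet3m/m and 5810.2 to 7238 in Tet3-/- (Apoa1, Apoa4 and Cer1 were not in that table). In the empty vector samples of the Tet3-CD experiment the visceral markers summed to 46665 in Tet3+/+, 12548 in Tet3m/m and 13963 in Tet3-/-. Of the parietal and primitive markers on day 3, 3 rose and 1 fell in Tet3m/m and 0 were called in Tet3-/-.

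Other cell types were marked in the same samples, and the shares of all genes called were again 21.2% in Tet3m/m and 24.9% in Tet3-/- in the Dnmt1 experiment and 10.2% and 0.642% on day 3. In the Dnmt1 experiment 11 of 12 pluripotency markers rose and 1 fell in Tet3m/m, while 0 rose and 10 fell in Tet3-/-, and their summed level was 43185 to 43618 in Tet3+/+, 114388 to 117466 in Tet3m/m and 9465 to 9993 in Tet3-/-. In the empty vector samples of the Tet3-CD experiment, where Lama1, Lamb1 and Lamc1 were lowest in Tet3m/m, the pluripotency markers were highest there, summing to 15128 in Tet3+/+, 30619 in Tet3m/m and 16458 in Tet3-/-. Of 10 fibroblast and feeder markers (S100a4 was not in the table), 1 rose and 7 fell in Tet3m/m and 5 rose and 1 fell in Tet3-/-, with summed levels of 23782 to 25804, 6802 to 6886 and 52456 to 53034 in Tet3+/+, Tet3m/m and Tet3-/-. Of 10 endothelial markers, 5 rose and 0 fell in Tet3m/m and 0 rose and 5 fell in Tet3-/-. Of 9 trophoblast markers, 2 rose and 5 fell in Tet3m/m and 1 rose and 4 fell in Tet3-/-, and they summed to 4282, 10184 and 25769 in Tet3+/+, Tet3m/m and Tet3-/- with the empty vector of the Tet3-CD experiment. Of 15 neural progenitor markers 3 rose and 6 fell in Tet3m/m and 7 rose and 2 fell in Tet3-/-. On day 3, 10 of the 15 neural markers fell and 0 rose in Tet3m/m, and 1 rose and 2 fell in Tet3-/-. Of the others on day 3, 1 pluripotency marker rose and 0 fell, 1 fibroblast marker rose and 0 fell, 2 endothelial markers rose and 2 fell, and 1 trophoblast marker rose and 4 of 10 fell in Tet3m/m, and 0 genes of these 4 lists were called in Tet3-/-. The pluripotency, fibroblast, endothelial and trophoblast lists had 12, 10, 10 and 10 measured genes there. Pga5, Spink1, Tpbpa, Hes5 and Otx2 were at 0 in at least 1 sample. The part of these cell types in the differences of the 9 genes was not tested.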

How the data were processed

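RNA-seq of 26 samples was used, of 35 in the series; the 9 samples of other assays were not analysed here. Per the labels and the study's methods, the authors trimmed reads with Trim Galore 0.6.7, aligned them with STAR 2.7.9a (mm39 in the methods, mm10 in the labels), assigned them to genes with featureCounts and scaled the resulting counts by DESeq2 (versions of the last pair are not given in the sources used here, nor is a strand setting). The deposited signal values are gene counts divided by a size factor per library, and all of them lay within 0.01 of whole reads once that factor was recovered, so the read counts were also tested. The authors' files hold no other samples' columns. In the Dnmt1 table both empty vector Tet3+/+ columns carry the same name and were called replicates a and b. No pair of replicates agreed within sampling noise.

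Differences were tested with limma 3.58.1 in R 4.3.3 on log2(value + 1), which understates changes of low genes, over genes with a mean of at least 10, each experiment's groups fitted together, with Benjamini-Hochberg adjustment over all tested genes. A gene was called at an adjusted p under 0.05 and a change over 1.5-fold. The Tet3-CD experiment has 1 sample per group, so it was given log2 ratios with exact 95% counting intervals and no test. Lengths came from merged exons of the GENCODE vM21 annotation and motifs from the RefSeq table of GRCm38.p6. Alternatives were pseudocounts of 0.1 and 5, no filter and a mean of at least 50, TMM scaling, edgeR 4.0.16 and DESeq2 1.42.0 on recovered reads, only the compared groups, no fold threshold, a replicate block and each sample left out. The scripts were tested on simulated data. A first limit on how many changed genes had to be recovered was not met, since genes of low counts were missed. After that was seen, it was replaced by a limit for genes of higher counts, the range of the 9 genes. The 9 genes and the 11 lists of other genes were chosen with earlier results of these data known. Genes outside the 9 were named from the 4 smallest adjusted p of a list in a comparison. Others came from the 5 highest and 5 lowest correlations with the laminin mean. Tet3 and Dnmt1 were named as checks. Markers at 0 or not in a table, and Sox17, Foxa2 and Gata6 with their correlations, were named after their values were seen.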

Additional observations from a re-analysis of the deposited data

Results flagged for a closer look

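The effect of the Dnmt1 vector differed between Tet3-/- and Tet3+/+ for Lamb1 by 0.22, for Nid1 by 0.47 and for Sparc by 0.39 on the log2 scale (limma adjusted p = 0.0424, 0.00318 and 0.0106), each with 2 samples per group and under 1.5-fold.

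The remaining results were drawn out because the values of a mutant lay on one side of Tet3+/+ in an experiment and on the opposite side in another. These differences between experiments were not tested, and the Tet3-CD experiment has 1 sample per group. On day 3 the values of Lamc1 and Nid1 in Tet3m/m and of Lamb1, Lamc1, Sparc and Thbd in Tet3-/- did not pass the limma test (adjusted p = 0.063, 0.0734, 0.226, 0.498, 0.0672 and 0.202), and Lamb1 in Tet3m/m passed under 1.5-fold. For Tet3m/m against Tet3+/+ with the empty vector of the Tet3-CD experiment, Lama1 had a log2 ratio of -2.71, against 1.05 on day 3 and 1.76 in the Dnmt1 experiment. Lamb1 had -1.85, against 0.56 and 1.26, and Lamc1 had -1.82, against 0.39 and 1.27. Nid1 had -0.47, against 0.54 and 1.72. Srgn had -2.81, against 1.57 and 1.55, and Sparc had -1.66, against 1.00 in the Dnmt1 experiment.

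For Tet3-/- against Tet3+/+, Lamb1 had a log2 fold change of 0.26 on day 3, against -0.82 and -1.66 in the empty vector samples of the Dnmt1 and Tet3-CD experiments. Lamc1 had 0.18 on day 3, against -0.77 and -1.71, and Sparc had 0.74, against -0.22 and -1.58. Nid1 had 1.20 on day 3 and 0.51 with the Dnmt1 experiment's empty vector, but -1.04 with that of the Tet3-CD experiment. Thbd had 0.86 and 1.36, against -1.04. The experiments also differ in vector, in the time of transfection and in the collection day given by the methods. Blasticidin treatment is described for the Dnmt1 experiment alone. These differences cannot be told apart here.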

How the results depend on the processing

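Of 240 recomputed counts of called genes among the 9, 214 stayed within 1.5 times the reported count, and of 1384 recomputed single values 1295 kept their direction and side of the threshold, 41 no longer passed it, 33 newly passed it and 15 changed sign. The called count on day 3 for Tet3m/m against Tet3+/+ was 2 as reported, 1 with a pseudocount of 0.1, with a mean of at least 50 or with only the compared groups, and 0 to 3 with a sample left out. For Tet3-/- against Tet3+/+ it was 2, 4 with DESeq2, 5 with only the compared groups and 0 to 5 with a sample left out, and for Tet3-/- against Tet3m/m it was 4 and 1 to 5 with a sample left out. Over all genes, 82 rose and 33 fell for Tet3-/- against Tet3+/+ on day 3, 65 and 21 by edgeR and 618 and 299 by DESeq2, none by limma without Tet3+/+ replicate 1 or 3, Tet3m/m replicate 2 or either Tet3-/- sample (2946 to 3506 genes at an unadjusted p under 0.05), 2 and 0 without Tet3+/+ replicate 2, 476 and 230 without Tet3m/m replicate 1 and 423 and 142 without Tet3m/m replicate 3. For the Dnmt1 vector in Tet3-/- the count was 1, and 3 with no fold threshold. For the difference of that effect from Tet3+/+ it was 0, 3 with no fold threshold and 0 to 1 with a sample left out. The values that changed sign were small. Sparc in Tet3m/m on day 3 was -0.0015 by edgeR and -0.0056 by DESeq2, and -0.17 to 0.13 with a sample left out. Thbd in Tet3-/- against Tet3m/m on day 3 was -0.077 by edgeR, -0.070 by DESeq2 and -0.39 to 0.31 with a sample left out. With a sample left out, Hspg2 in Tet3m/m on day 3 was -0.013 to 0.35, Plat in Tet3-/- on day 3 -0.033 to 0.39, Thbd in Tet3m/m with the empty vector -0.19 to 0.28 and Plat in Tet3-/- against Tet3m/m with the empty vector -0.065 to 0.10. The cause of these changes was not tested.

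The replicate numbers did not pair the samples: deviations of same-numbered samples had correlations of -0.098 to 0.082 on day 3 and -0.053 to 0.029 in the Dnmt1 experiment. With the replicate block the called counts on day 3 were 2, 2 and 3, in the Dnmt1 experiment 7 for Tet3-/- against Tet3m/m, 0 for the Dnmt1 vector in Tet3m/m and 1 in Tet3-/-, and Thbd in Tet3-/- against Tet3m/m on day 3 was -0.14. Comparisons with the empty vector Tet3+/+ samples could not be fitted with a block, since their columns carry no distinct numbers.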
